A study of Homo sapiens with 6 samples.

Results

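The B cell identity transcription factors examined here were PAX5, EBF1, TCF3, IKZF1, IKZF3, FOXO1, BCL11A, SPIB, POU2AF1 and LEF1. They were chosen by name, as regulators that specify or maintain the B lineage, and all 10 were found among the 30017 gene symbols of the count table. Of these, 9 passed a filter on low counts and were among the 14758 genes tested, whereas IKZF3 was too weakly counted to be tested. The question was how far each factor was silenced when B cells were converted into macrophages, and whether this differed when CTCF was depleted.

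The libraries came from BLaER, a human B cell leukemia line that carries an inducible form of the transcription factor C/EBPα and converts into macrophage-like cells when this factor is switched on. In all 6 libraries the cells were of a single subclone, CTCF-AID, in which CTCF carries a degron tag that makes the protein short-lived once auxin is added to the medium. Total RNA was depleted of ribosomal RNA and sequenced, and reads were counted per gene. Each of the 3 groups had 2 biological replicates. The 0 h group was cultured without transdifferentiation factors and without auxin. The 96 h control group was collected 96 h after addition of estradiol, IL-3 and CSF-1, without auxin. The 96 h CTCF-depleted group received the same factors for 96 h, with auxin added at the same time. No auxin-treated line without the degron was among these libraries, so effects of auxin itself and of CTCF loss cannot be told apart.

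B lineage identity is built by a small network of transcription factors. E proteins encoded by TCF3 act with EBF1 and FOXO1 to open early B cell genes, EBF1 then activates PAX5, and PAX5 holds cells in the lineage by activating B cell genes and repressing genes of other lineages. C/EBPα is a myeloid transcription factor that can override this network, and CTCF is a DNA-binding protein that delimits chromatin loops and domains.

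Total counts were 9273470 and 12718780 at 0 h, 11695516 and 11267539 in the control and 11001175 and 10911481 in the CTCF-depleted libraries. Levels are given as CPM, the counts relative to library totals scaled by the trimmed mean of M values (TMM), as mean ± SD with n = 2, and changes as log2 fold changes with their standard error (SE). A gene was called changed where its edgeR adjusted p was under 0.01 and its log2 fold change exceeded 0.6 in size. Replicates differed by more than sampling noise in each group, with a chi-square per degree of freedom of 2.76 at 0 h, 1.92 in the control and 1.73 in the CTCF-depleted group. The tests rest on the spread between these libraries, which the study describes as biological replicates.

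The labels were first checked against cell type markers. The 5 B cell markers, among them MS4A1, CD79A and CD22, summed to 549 and 527 CPM at 0 h, to 212 and 214 CPM in the 96 h control and to 243 and 250.3 CPM in the CTCF-depleted libraries. Each of the 5 was called lower at 96 h than at 0 h, with and without CTCF depletion, with median log2 fold changes of -1.14 and -1.20. CD22, the B cell adhesion and inhibitory receptor, was at 182 ± 4.11 CPM at 0 h. The B cell markers were thus reduced at 96 h, to differing extents. CD79A was still at 69.3 ± 0.699 CPM in the control. MS4A1, which encodes CD20, was at 0.586 ± 0.0439 CPM in the control. This rested on only 7 and 6 counts, with 7 and 5 under depletion.

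The 9 macrophage markers moved the other way. They summed to 39.3 and 35.3 CPM at 0 h, most of it CSF1R, and to 5313 and 5063 CPM in the control and 4961 and 4923 CPM in the CTCF-depleted libraries. All 9 were called higher at 96 h in both conditions. CSF1R and CD68 alone had at least 10 counts in every library, and with that filter 2 were called higher in the control. The others passed the filter on low counts through the 96 h groups, where they were high. The most abundant gene of the 9 was LYZ, lysozyme, at 4523 ± 185 CPM in the control. CD163 had 0 counts in both 0 h libraries, and FCER1G and TYROBP had at most 2 and 1. With these 3 genes held at a floor of 3 counts per library, the median log2 fold change of the list was 7.28 in the control and 7.37 under CTCF depletion. Between the 96 h groups, 1 of the 9 was called higher under depletion, the integrin gene ITGAM (log2 fold change 1.15, SE 0.057, edgeR adjusted p = 1.43e-24), and 1 lower, the mannose receptor gene MRC1 (-1.33, SE 0.12, edgeR adjusted p = 3.95e-14).

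Markers of T, natural killer, erythroid and platelet cells were also counted. Of the 10, 5 had 0 counts in every library, among them CD3D and HBB, where 0 counts allow up to 3. NKG7 and PPBP were tested and both were called higher at 96 h, NKG7 from 2.66 ± 0.265 CPM to 34.7 ± 0.225 CPM in the control. The list summed to 2.58 and 2.92 CPM at 0 h, 50.1 and 54.0 CPM in the control and 46.1 and 47.2 CPM under depletion, most of it NKG7. Between the 96 h groups the log2 fold changes were -0.30 for NKG7 (edgeR adjusted p = 0.0145) and 0.08 for PPBP (edgeR adjusted p = 0.703). Their part in the results on the B lineage factors was not tested.

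CTCF transcript was measured at 222 ± 11.9 CPM at 0 h, 177 ± 5.02 CPM in the control and 190 ± 1.40 CPM in the depleted group. The control and depleted libraries differed by a log2 fold change of 0.10 (SE 0.051, edgeR adjusted p = 0.119). The degron acts on the protein, so the transcript does not report on depletion.

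The factors differed widely in level in the starting B cells. Per kilobase of transcript, LEF1 was the most abundant at 283 ± 1.24 CPM per kb, followed by EBF1 at 162 ± 7.02, TCF3 at 135 ± 8.35 and PAX5 at 91.1 ± 0.142 CPM per kb. Next came IKZF1, POU2AF1 and BCL11A at 50.3 ± 0.542, 50.2 ± 5.41 and 43.7 ± 1.88 CPM per kb, and neighbours among these 3 were within their SDs of each other. FOXO1 was at 22.8 ± 0.844 CPM per kb, SPIB at 1.62 ± 0.173 CPM per kb and IKZF3 at 0.0517 ± 0.0135 CPM per kb. Except for IKZF1 with POU2AF1 and POU2AF1 with BCL11A, neighbours in this order were further apart than their SDs.

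At 96 h the order had changed. IKZF1 was the most abundant factor of the control cells at 46.9 ± 1.37 CPM per kb, ahead of TCF3 at 39.2 ± 0.0430 and LEF1 at 30.4 ± 1.52 CPM per kb, and POU2AF1 fell to the ninth place at 3.37 ± 0.441 CPM per kb. The 10 factors summed to 4195 and 4181 CPM at 0 h, 892 and 919 CPM in the control and 832 and 856 CPM in the CTCF-depleted libraries. In the CTCF-depleted cells the order of the 10 by these lengths was that of the control, from IKZF1 at 45.7 ± 0.721 CPM per kb down to IKZF3, and PAX5 and FOXO1, at 9.77 ± 0.362 and 9.24 ± 0.711 CPM per kb, lay within their SDs of each other. Transcript lengths were those of the MANE Select transcripts; with the union of annotated exons as the length, TCF3, at 29.1 CPM per kb, was ahead of IKZF1, at 26.9 CPM per kb, in the control, while IKZF1, at 26.2, was ahead of TCF3, at 24.0, under depletion. With that length FOXO1, at 22.1 CPM per kb, was also ahead of POU2AF1, at 20.6, and BCL11A, at 10.9, at 0 h. SPIB was then ahead of BCL11A at 96 h (4.10 and 1.72 CPM per kb in the control, 3.08 and 1.80 under depletion), and FOXO1, at 8.97, was ahead of PAX5, at 8.88, under depletion, so these places in the order depend on the length used. In bulk RNA, fewer cells of a type and less RNA per cell cannot be told apart.

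**Figure D1:**
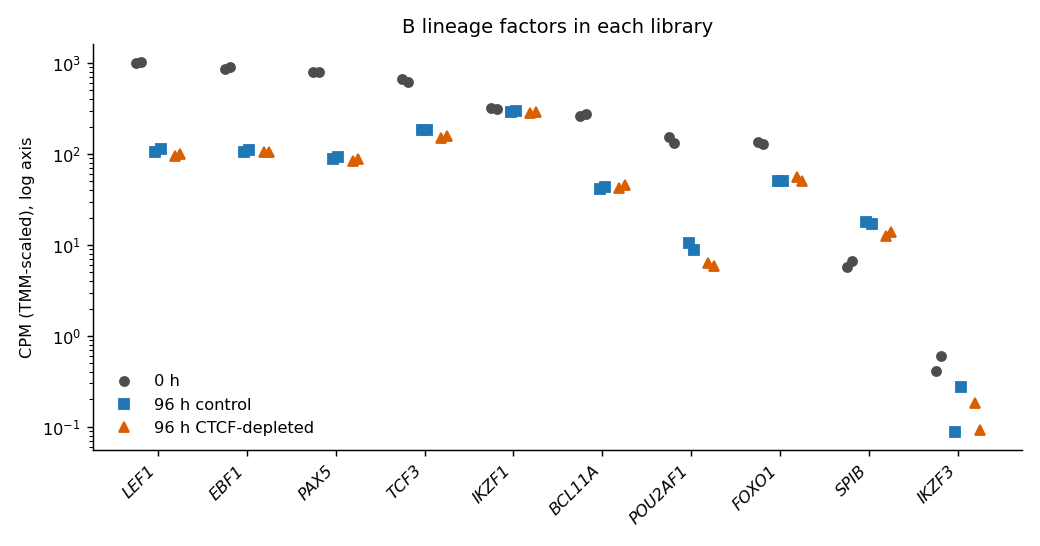
Level of each B lineage factor in every library. The y axis is CPM after TMM scaling on a log axis and the x axis lists the factors by their mean level at 0 h; each point is 1 library (circles 0 h, squares 96 h control, triangles 96 h CTCF-depleted). The 96 h points of LEF1, EBF1, PAX5, TCF3, BCL11A, POU2AF1 and FOXO1 lie below their 0 h points, those of IKZF1 lie just below, and those of SPIB lie above.

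Against 0 h, 7 of the 9 tested factors were called lower in the 96 h control, 1 was called higher and 1 passed neither threshold. Among all 14758 genes tested, 22.9% were called lower and 25.4% higher in that comparison. The median log2 fold change of the 9 was -2.67, beside 0.02 for all tested genes. In CTCF-depleted cells against the same 0 h libraries the counts were again 7 lower, 1 higher and 1 not called, with 25.2% of all tested genes called lower and 27.2% higher. The median was then -2.60, beside 0.02 for all genes. Both comparisons share the 0 h libraries. Upper quartile or total count scaling moved the median of all genes in the control comparison from 0.02 to -0.10 and turned the balance of calls, from 3748 higher and 3376 lower to 3331 and 3987 with upper quartile scaling and 3323 and 3999 with total count scaling. In the CTCF-depleted comparison the balance also turned, from 4016 higher and 3726 lower. It came to 3718 and 4076 with upper quartile scaling and to 3708 and 4075 with total count scaling. The 7 factors called lower had changes far larger than the shift of the median, whereas the IKZF1 change of -0.10 was of its size. All 9 tested factors had at least 55 counts in every library, so that none passed the filter through 1 group alone.

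The direct comparison of CTCF-depleted with control cells at 96 h is the test of whether silencing differed. Of the 9 factors, 1 was called lower and 8 were not called, while 7.03% of all tested genes were called lower and 5.41% higher. The median log2 fold change of the 9 was -0.10, beside -0.03 for all tested genes, with 7 of 9 below 0. In edgeR 0 of the 9 were called higher, as in DESeq2, and 0 had a positive change at an unadjusted p below 0.05. At an unadjusted p below 0.05, 4 of the 9 were lower. Over all genes, DESeq2 called 718 lower and 558 higher between the 96 h groups, and edgeR 1038 and 798. The shares of all tested genes given here are those of edgeR and depend on the tool.

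The first group of factors specifies the lineage. EBF1, an early B cell factor at chr5:158695920-159099916 (minus strand), was at 851 and 905 CPM in the 0 h libraries, 104 and 110.1 CPM in the control and 105.0 and 106 CPM in the CTCF-depleted libraries. All 96 h values were far below both 0 h values, and the 96 h groups overlapped. The level in the control was 12.2% of that at 0 h (95% confidence interval 11.4 to 13.1; log2 fold change -3.03, SE 0.051, edgeR adjusted p = 3.28e-49), and under depletion it was 12.0% (11.2 to 12.9). The difference between the 96 h groups was a log2 fold change of -0.02 (95% interval -0.13 to 0.09, edgeR adjusted p = 0.812), whose sign changed to 0.01 with upper quartile scaling and 0.02 with total count scaling.

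TCF3, which encodes the E proteins E12 and E47, lies at chr19:1609291-1652615 (minus strand). It was at 668 and 612 CPM at 0 h, 186 and 185 CPM in the control and 148 and 157 CPM under depletion. The 3 groups did not overlap, and the depleted libraries were the lowest. TCF3 retained 29.0% of its 0 h level in the control (27.1 to 31.0; log2 fold change -1.79, SE 0.049, edgeR adjusted p = 1.71e-38) and 23.9% under depletion (22.3 to 25.6). The difference between the 96 h groups had an edgeR adjusted p of 1.68e-05, with a log2 fold change of -0.28 (SE 0.053, 95% interval -0.38 to -0.17) that did not reach the fold threshold. BLaER was derived from a leukemia with a rearranged TCF3 allele, and counts per gene cannot separate this allele from the normal one.

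PAX5, the commitment factor, lies at chr9:36833269-37034268 (minus strand). Its level was 794 and 792 CPM at 0 h, 89.0 and 93.0 CPM in the control and 82.8 and 87.2 CPM in the CTCF-depleted libraries. The 0 h libraries were the highest, and both depleted libraries were below both control libraries by a narrow margin. PAX5 kept 11.5% of its 0 h level in the control (10.7 to 12.3; log2 fold change -3.12, SE 0.051, edgeR adjusted p = 8.44e-50) and 10.7% under depletion (9.98 to 11.5). The difference between the 96 h groups was -0.10 on the log2 scale (95% interval -0.22 to 0.02, edgeR adjusted p = 0.191).

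FOXO1, a forkhead factor that activates the recombination genes RAG1 and RAG2, lies at chr13:40555667-40666641 (minus strand). Its levels were 135 and 128 CPM at 0 h, 50.7 and 49.9 CPM in the control and 56.3 and 50.5 CPM under depletion. It was the least reduced of the 7 factors called lower, with 38.2% of its 0 h level left in the control (34.6 to 42.3; log2 fold change -1.39, SE 0.072, edgeR adjusted p = 6.01e-25) and 40.6% under depletion (36.8 to 44.9). The 96 h groups overlapped and differed by a log2 fold change of 0.09 (95% interval -0.07 to 0.24, edgeR adjusted p = 0.409).

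LEF1, a high mobility group factor of WNT signalling that is expressed in early B cells, lies at chr4:108047545-108168956 (minus strand). It was at 1009 and 1015 CPM at 0 h, 105 and 113 CPM in the control and 95.2 and 99.7 CPM under depletion. The 96 h groups did not overlap, with the depleted libraries lower. LEF1 kept 10.7% of its 0 h level in the control (10.0 to 11.5; log2 fold change -3.22, SE 0.051, edgeR adjusted p = 1.45e-50) and 9.63% under depletion (8.96 to 10.3), and the 96 h groups differed by -0.16 on the log2 scale (SE 0.057, edgeR adjusted p = 0.0237), which was not called. This difference was -0.08 without control replicate 2 or without CTCF-depleted replicate 1. The antisense gene LEF1-AS1 shares exon positions with LEF1 on the other strand. It fell by 1.40 on the log2 scale in the control (SE 0.19, edgeR adjusted p = 2.23e-09), and because the strand setting of the counting was not given in the sources used here, reads of the overlap cannot be assigned to either gene.

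BCL11A, a zinc finger factor needed for early B cell development, lies at chr2:60450520-60554467 (minus strand). It was at 259 and 275 CPM at 0 h, 41.4 and 42.8 CPM in the control and 42.3 and 46.0 CPM under depletion. All 96 h libraries were low, and the control and depleted libraries overlapped. BCL11A kept 15.8% of its 0 h level in the control (14.4 to 17.3; log2 fold change -2.67, SE 0.065, edgeR adjusted p = 6.17e-41) and 16.5% under depletion (15.1 to 18.1). The 96 h groups differed by 0.07 on the log2 scale (95% interval -0.09 to 0.22, edgeR adjusted p = 0.516).

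IKZF1, encoding Ikaros, is active in most blood lineages and lies at chr7:50304068-50405101 (plus strand). Its levels were 317 and 312 CPM at 0 h, 287 and 299 CPM in the control and 283 and 289 CPM under depletion. The 0 h libraries were slightly above all 96 h libraries, and the 96 h groups overlapped. IKZF1 retained 93.3% of its 0 h level in the control (87.5 to 99.5; log2 fold change -0.10, SE 0.046, edgeR adjusted p = 0.0464) and 91.0% under depletion (85.3 to 97.1; edgeR adjusted p = 0.00717), and neither change reached the fold threshold. The difference between the 96 h groups was -0.04 (95% interval -0.13 to 0.06, edgeR adjusted p = 0.59), whose sign was not stable near 0 and came to 0.00 with total count scaling.

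IKZF3, encoding Aiolos, lies at chr17:39757718-39864312 (minus strand) and is a factor of later B cell stages. It had 4 and 8 counts at 0 h, 1 and 3 counts in the control and 2 and 1 counts under depletion. These values were close to the floor of 3 counts in every group at 96 h, so no change was tested, and silencing of IKZF3 could not be measured at this depth.

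SPIB, an ETS factor related to PU.1 that is known from B cells and plasmacytoid dendritic cells, was the exception in direction. It lies at chr19:50418938-50431314 (plus strand) and had 55 and 88 counts at 0 h, 203 and 186 counts in the control and 136 and 150 counts under depletion. This corresponded to 5.67 and 6.59 CPM, 17.9 and 17.2 CPM, and 12.6 and 13.8 CPM, so that the 0 h libraries were the lowest, the control libraries the highest and the depleted libraries between them. SPIB rose to 283% of its 0 h level in the control (228 to 353; log2 fold change 1.50, SE 0.16, edgeR adjusted p = 1.25e-12) and to 213% under depletion (169 to 268; log2 fold change 1.09, SE 0.17, edgeR adjusted p = 4.28e-08). The difference between the 96 h groups was -0.41 on the log2 scale (95% interval -0.69 to -0.13, edgeR adjusted p = 0.015) and was not called.

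POU2AF1, which encodes the coactivator OCA-B of the octamer-binding factors, lies at chr11:111352255-111455630 (minus strand). It had 1507 and 1779 counts at 0 h, 120 and 95 in the control and 68 and 64 under CTCF depletion, which was 155 and 133 CPM, 10.6 and 8.79 CPM, and 6.29 and 5.89 CPM. The 3 groups did not overlap, with the depleted libraries lowest. POU2AF1 was the most strongly silenced factor, with 6.75% of its 0 h level left in the control (5.88 to 7.75; log2 fold change -3.89, SE 0.099, edgeR adjusted p = 4.69e-40) and 4.24% under depletion (3.65 to 4.93; log2 fold change -4.56, SE 0.11, edgeR adjusted p = 1.16e-41). It was the single factor called between the 96 h groups, with a log2 fold change of -0.67 (SE 0.16, 95% interval -0.99 to -0.35, edgeR adjusted p = 5.33e-04). Without control replicate 1 the value was -0.50 (edgeR adjusted p = 0.068), and without CTCF-depleted replicate 2 it was -0.59 (edgeR adjusted p = 0.0103), so the call rested on both of these libraries.

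**Figure D2:**
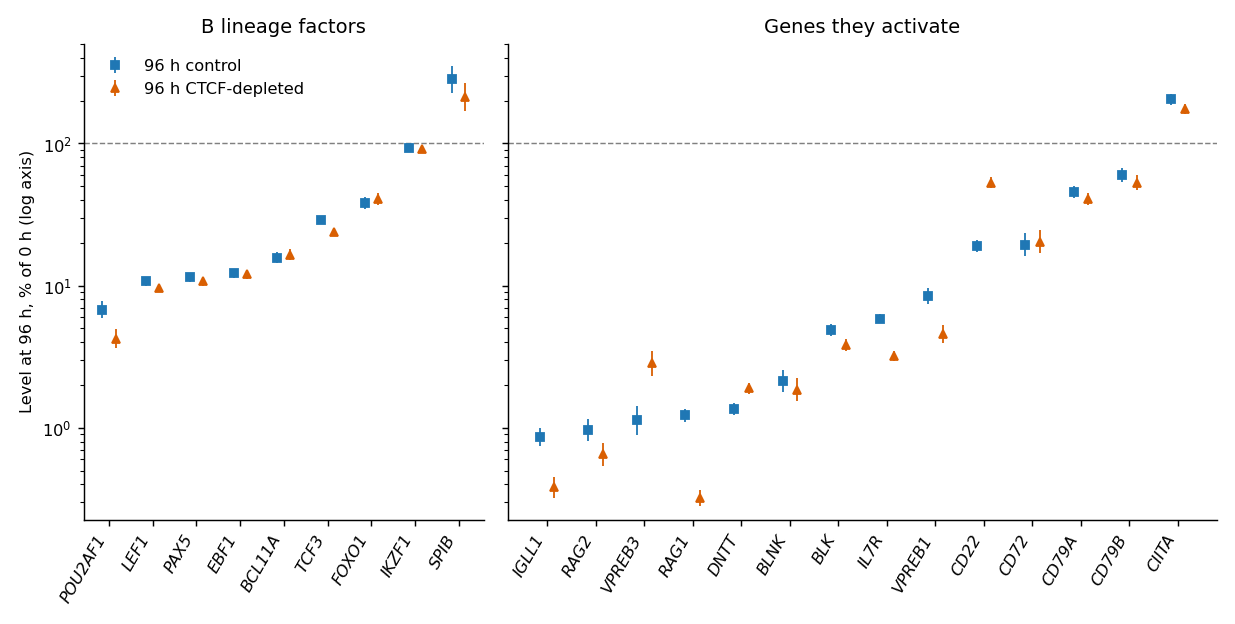
Level at 96 h as a percentage of the level at 0 h, on a log axis, for the 9 tested B lineage factors (left) and 14 of the 16 genes that such factors activate (right). Squares are the 96 h control and triangles the 96 h CTCF-depleted group, points are estimates from the edgeR fit with n = 2 per group, bars are 95% confidence intervals, and the dashed line marks 100%. POU2AF1 is lowest among the factors at 6.75% and 4.24%, and several target genes lie below it.

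Promoter sequence was printed for 4 factors that behaved differently: PAX5 and BCL11A, which fell, IKZF1, which did not reach the fold threshold, and SPIB, which rose. The RefSeq promoter table on GRCh38.p14 held 8 of the 10 factors, and for 6 of them (PAX5, TCF3, IKZF1, FOXO1, BCL11A, SPIB) a listed start was that of the MANE Select transcript. POU2AF1 and IKZF3 had no entry. The 250 bases upstream of each such start are given 5' to 3' on the strand of the gene, with motif matches in capitals. Motifs were searched on both strands: the E-box CAGGTG, the EBF1 core CCCNNGGGA, the octamer ATGCAAAT, the C/EBP core TTGCNNAA, the PU.1 core GAGGAAGT, the CTCF core AGGNGGCG and the TATA box TATAAAA.
PAX5, chr9:37034269-37034518, minus strand: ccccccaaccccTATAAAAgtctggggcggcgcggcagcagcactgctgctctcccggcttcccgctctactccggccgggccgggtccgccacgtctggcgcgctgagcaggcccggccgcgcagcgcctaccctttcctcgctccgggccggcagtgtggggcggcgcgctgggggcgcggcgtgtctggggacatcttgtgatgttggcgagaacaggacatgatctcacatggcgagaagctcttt
BCL11A, chr2:60553655-60553904, minus strand: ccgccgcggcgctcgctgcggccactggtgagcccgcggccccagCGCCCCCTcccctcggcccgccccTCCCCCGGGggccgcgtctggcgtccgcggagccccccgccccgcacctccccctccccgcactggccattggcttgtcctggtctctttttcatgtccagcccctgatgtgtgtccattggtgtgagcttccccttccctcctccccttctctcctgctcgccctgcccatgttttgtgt
IKZF1, chr7:50304466-50304715, plus strand: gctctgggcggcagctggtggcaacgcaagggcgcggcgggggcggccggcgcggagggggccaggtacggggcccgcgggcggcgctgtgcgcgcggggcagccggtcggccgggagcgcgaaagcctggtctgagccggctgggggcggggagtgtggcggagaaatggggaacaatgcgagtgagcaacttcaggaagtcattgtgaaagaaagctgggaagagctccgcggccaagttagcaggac
SPIB, chr19:50418688-50418937, plus strand: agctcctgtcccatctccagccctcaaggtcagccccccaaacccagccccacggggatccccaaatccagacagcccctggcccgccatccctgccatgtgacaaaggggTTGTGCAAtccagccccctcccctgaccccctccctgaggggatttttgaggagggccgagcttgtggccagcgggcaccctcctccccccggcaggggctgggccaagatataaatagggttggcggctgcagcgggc

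PAX5 held a TATA box match, a sequence found in 4.18% of 35116 promoters of this length. The match lay at the end of the window furthest from the start. Only exact letters were matched, so the similar tataaata close to the SPIB start was not counted. BCL11A held matches to the EBF1 core and the CTCF core, which were found in 7.84% and 15.3% of promoters, and SPIB held a match to the C/EBP core, found in 9.05%. In the window printed, IKZF1 held no match to any of the 7 motifs. Other listed starts of the same genes did hold matches. IKZF1 had a C/EBP core match upstream of position 50308700 and a TATA box match upstream of 50319048. BCL11A had C/EBP core matches on both strands upstream of 60552714, so this motif was not particular to SPIB. At the MANE Select starts, CTCF core matches were also present upstream of TCF3 and FOXO1. The E-box, octamer and PU.1 core, found in 17.5%, 1.63% and 2.17% of all promoters, were not matched in any of the 6 MANE Select windows. The G and C content was 69.6% for PAX5, 72.0% for BCL11A, 71.2% for IKZF1 and 66.4% for SPIB, all above the median of 58.0% over all promoters. A match is a description of letters in a window and not evidence of binding.

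The genes downstream of the factors were examined next. Of 16 genes known to be activated by PAX5, EBF1, TCF3, IKZF1 or FOXO1 in the B lineage, 14 were called lower and 2 higher in the control, with a median log2 fold change of -3.82, beside 0.02 for all tested genes. Under depletion the counts against 0 h were the same, 14 and 2, with a median of -4.58. Of all tested genes, 22.9% were called lower and 25.4% higher in the control, and 25.2% and 27.2% under depletion. Of the 5 B cell markers above, 4 are also in this list. The median level left was 7.18% in the control and 4.21% under depletion. Of the 16, 7 fell below 5% in the control and 9 under depletion, whereas 0 and 1 of the 9 factors did. Below 20% were 11 of the 16 in the control and 9 under depletion, and 5 of the 9 factors in each. The lowest levels were those of IGLL1 in the control, at 0.866%, and of RAG1 under depletion, at 0.320%.

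RAG1, the recombinase gene, was at 637 ± 8.73 CPM at 0 h, 7.80 ± 0.565 CPM in the control and 2.03 ± 0.529 CPM under depletion. RAG2, its partner, fell by 6.70 on the log2 scale in the control, and VPREB3 had 771 and 898 counts at 0 h and 10 and 8 in the control. For RAG1, the fall from control to depleted cells was -1.94 on the log2 scale (SE 0.20, edgeR adjusted p = 6.18e-12). IGLL1, a component of the surrogate light chain, was at 330.1 ± 21.7 CPM at 0 h, 2.85 ± 0.416 CPM in the control and 1.25 ± 0.322 CPM under depletion, where reads of the closely related IGLL5 could not be separated. Of the 2 genes called higher, CIITA, the regulator of class II antigen presentation genes, rose from 89.7 ± 3.72 to 183 ± 16.1 CPM in the control.

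Between the 96 h groups, 5 of the 16 target genes were called lower under depletion and 2 higher, where 7.03% and 5.41% of all tested genes were called. The median log2 fold change was -0.29, beside -0.03 for all tested genes. RAG1, above, was among those called lower. IGLL1 was called at -1.18 (SE 0.29, edgeR adjusted p = 8.69e-04), a call lost without control replicate 2 (-1.001, edgeR adjusted p = 0.0396) and without CTCF-depleted replicate 1 (-0.91, edgeR adjusted p = 0.0554). VPREB3, with 24 and 21 counts under depletion, was called higher at 1.34 (edgeR adjusted p = 0.0026), a call lost without control replicate 1 (1.51, edgeR adjusted p = 0.0222), control replicate 2 (1.26, edgeR adjusted p = 0.0462) or CTCF-depleted replicate 1 (1.28, edgeR adjusted p = 0.0226). The inhibitory receptor gene CD22 also moved the other way, from 34.8 ± 3.29 CPM in the control to 96.5 ± 1.85 CPM under depletion (log2 fold change 1.47, SE 0.074, edgeR adjusted p = 3.04e-24). CD22 therefore retained 53.0% of its 0 h level in CTCF-depleted cells and 19.1% in control cells.

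Genes that PAX5 is known to repress in B cells were described in the same way. Of 9, 7 were called higher in the control and 2 were not called, with a median log2 fold change of 2.54, and under depletion the counts were again 7 and 2, with a median of 2.75, beside 0.02 for all tested genes in each comparison. The share of all tested genes called higher was 25.4% in the control and 27.2% under depletion. CCL3, with 3 and 0 counts at 0 h, and GRAP2 passed the filter on low counts through the 96 h groups alone. With at least 10 counts in every library, 5 genes were called higher in the control. The control median of 2.54 was the value of GRAP2 itself. In the control the call of GRAP2, which had 1 and 4 counts at 0 h, was lost without 0 h replicate 1 (2.08, edgeR adjusted p = 0.0128), leaving 6 called. Under depletion the call of NOTCH1, at 0.65, was lost with upper quartile scaling (0.57), with total count scaling (0.56) and without 0 h replicate 2 (0.59). In edgeR 0 were called lower in either comparison, as in DESeq2, and at an unadjusted p below 0.05 0 were lower in the control and 1 under depletion. The hematopoietic adaptor LMO2 rose from 9.81 ± 0.753 to 331 ± 0.182 CPM in the control (log2 fold change 5.06, SE 0.073, edgeR adjusted p = 1.52e-52). PRDM1, a repressor that opposes the B cell program in plasma cells, rose from 1.34 ± 0.00642 to 75.6 ± 1.71 CPM. CSF1R, the receptor of CSF-1, rose from 33.2 ± 2.57 to 273 ± 3.28 CPM. It is also among the macrophage markers above, so the 2 lists share this gene.

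Under depletion 2 of the 9 PAX5-repressed genes were called higher than in the control and 0 lower, and DESeq2 called 1 and 0, while 4 were higher and 4 lower at an unadjusted p below 0.05. Of all tested genes, 5.41% were called higher and 7.03% lower. The median log2 fold change was -0.30, beside -0.03 for all tested genes. The chemokine gene CCL3 was called higher at 0.91 (SE 0.17, edgeR adjusted p = 8.10e-06), where reads of near-identical copies could not be separated. The adaptor gene GRAP2 had 15 and 14 counts in the control and 56 and 30 under depletion (log2 fold change 1.59, edgeR adjusted p = 3.35e-04). Its call was lost in DESeq2 (1.61, adjusted p = 0.0373) and without control replicate 1 (1.64, edgeR adjusted p = 0.014), control replicate 2 (1.61, edgeR adjusted p = 0.0157) or CTCF-depleted replicate 1 (1.11, edgeR adjusted p = 0.09).

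Relatives, partners and inhibitors of the factors were mixed. Of 19 listed, 17 were tested: 6 were called higher, 3 lower and 8 not called in the control, with a median log2 fold change of 0.08, and 7, 6 and 4 under depletion, with a median of 0.15, beside 0.02 for all tested genes in each comparison. The shares of all tested genes called higher and lower were 25.4% and 22.9% in the control and 27.2% and 25.2% under depletion. Of the 6 called lower under depletion, IKZF4, at -0.67, lost its call without CTCF-depleted replicate 2 (-0.58). ID2, an inhibitor of E proteins, rose from 3.15 ± 0.643 to 153 ± 5.98 CPM in the control (log2 fold change 5.63, SE 0.11, edgeR adjusted p = 1.53e-46). ID1, another such inhibitor, had 2 and 2 counts at 0 h, 617 and 568 in the control and 289 and 305 under depletion. The levels of SPI1, which encodes PU.1, were 42.9 ± 3.58 CPM at 0 h and 318 ± 3.54 CPM in the control, and FOXO3 rose from 51.3 ± 2.99 to 332 ± 5.67 CPM. IKZF2, encoding Helios, fell from 203 ± 20.4 to 27.8 ± 2.35 CPM.

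Of these 17 relatives, 4 were called lower and 2 higher in CTCF-depleted than in control cells, where 7.03% and 5.41% of all tested genes were called. Their median log2 fold change was -0.20, beside -0.03 for all tested genes. The E protein inhibitors ID1 (-0.96, SE 0.089, edgeR adjusted p = 1.51e-13) and ID3 (-1.01, SE 0.088, edgeR adjusted p = 1.91e-14) were called lower, whereas ID2 was higher without reaching the fold threshold (0.24, edgeR adjusted p = 5.75e-04). IKZF2 was also called lower (-0.78, SE 0.11, edgeR adjusted p = 2.39e-08). BCL11B, the T lineage paralog of BCL11A, had 238 and 312 counts at 0 h, 11 and 14 in the control and 2 and 2 under depletion; its call was lost without control replicate 2, CTCF-depleted replicate 1 or CTCF-depleted replicate 2, where the edgeR adjusted p was 0.0211, 0.0106 and 0.0111. Its fitted log2 fold change, which depends on the prior count at so few counts, was -2.54 with all libraries and -2.30, -2.51 and -2.51 without each of these. FOXO4 was called higher (0.76, SE 0.092, edgeR adjusted p = 6.50e-10). EBF4 was called higher at 0.72 (edgeR adjusted p = 2.90e-04), a call lost without control replicate 2 (0.59, edgeR adjusted p = 0.0214), without CTCF-depleted replicate 1 (0.61, edgeR adjusted p = 0.0127) and in DESeq2 (0.73, adjusted p = 0.024).

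Of 12 other regulators of the B lineage or of the starting leukemia, 11 were tested. In the control 7 were called lower, 2 higher and 2 not called (median log2 fold change -1.03), and under depletion 7, 3 and 1 (median -1.10). Among all tested genes 22.9% were called lower and 25.4% higher in the control, and 25.2% and 27.2% under depletion, with a median of 0.02 in each comparison. Of the 3 called higher under depletion, RUNX1, at 0.61, lost its call with upper quartile or total count scaling (0.53 in both) and without CTCF-depleted replicate 2 (0.598). IRF4, which directs later B cell stages, fell from 239 ± 1.55 to 25.6 ± 0.470 CPM in the control, and the ETS factor ERG from 69.1 ± 6.47 to 10.1 ± 0.615 CPM. BACH2, a repressor of the plasma cell program, fell from 115 ± 3.07 to 26.6 ± 1.71 CPM. IRF8, which is used by both B cells and monocytes, rose from 13.0 ± 3.08 to 349 ± 9.71 CPM. Between the 96 h groups the median log2 fold change was -0.04, beside -0.03 for all tested genes, and 1 of the 11 was called, IRF8, which was lower under depletion at 168 ± 1.19 CPM (log2 fold change -1.06, SE 0.054, edgeR adjusted p = 5.13e-24). In edgeR 0 of the 11 were called higher, as in DESeq2, and 1 was higher at an unadjusted p below 0.05.

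**Figure D3:**
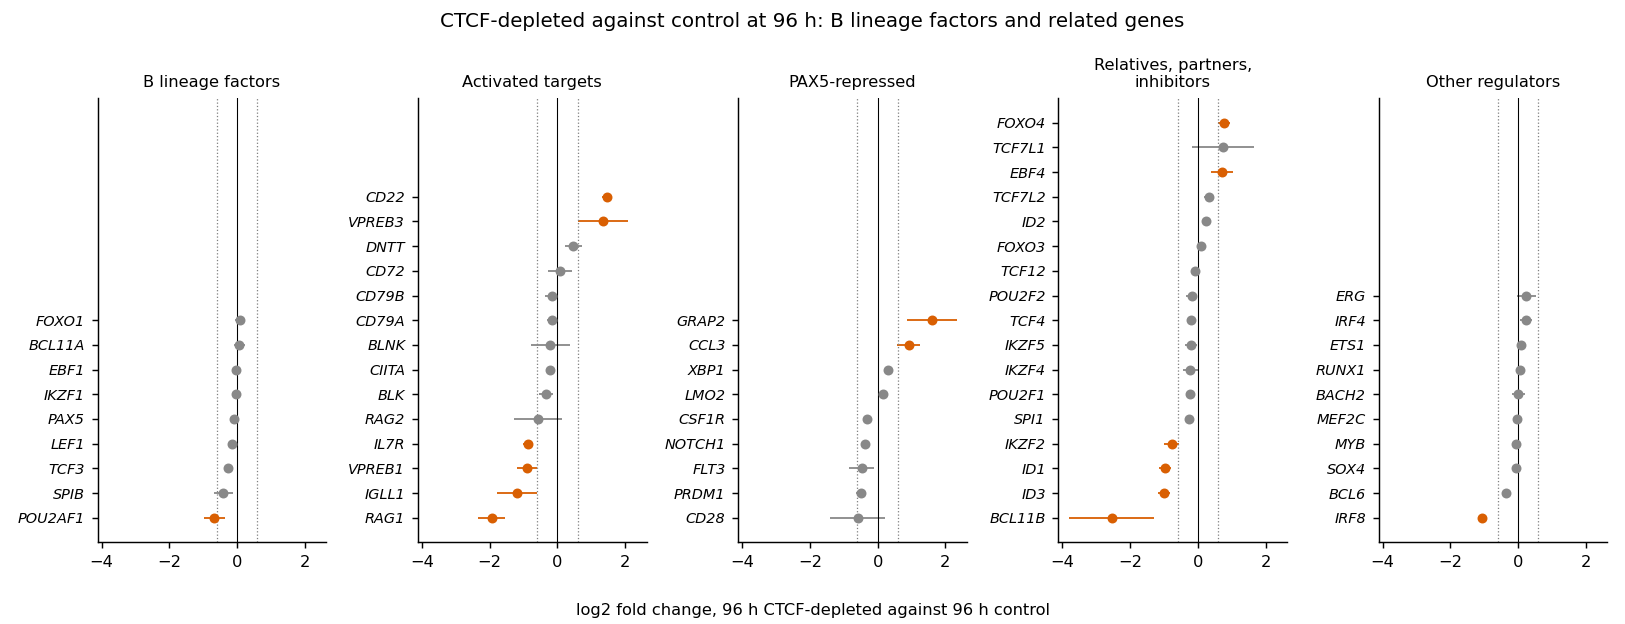
Log2 fold change between 96 h CTCF-depleted and 96 h control libraries (x axis, n = 2 per group) for the tested B lineage factors and for most genes of 4 related lists, 1 line per gene. Points are edgeR estimates and bars are 95% confidence intervals; orange points were called and grey points were not, and dotted lines mark the fold threshold of 0.6. Of the factors, POU2AF1 is the single orange point at -0.67, while the target genes drawn span -1.94 for RAG1 to 1.47 for CD22.

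The genes flanking the factors were examined because neighbours can share chromatin domains. Of the 20 nearest tested genes, 1 on each side of each factor, 11 were called lower and 2 higher in the control against 0 h, where 22.9% and 25.4% of all tested genes were called, and their median log2 fold change was -0.69, beside 0.02 for all tested genes. The call of COLCA1, with 16 and 16 counts at 0 h and 1 and 2 in the control, was lost in DESeq2 (-3.40, adjusted p = 0.0128). Next to PAX5, ZCCHC7 starts 86306 bp from the gene on the opposite strand. It was at 605 and 630.3 CPM at 0 h, 76.5 and 82.7 CPM in the control and 80.7 and 88.1 CPM under depletion. Its log2 fold changes were -2.96 in the control (SE 0.054, edgeR adjusted p = 1.51e-47) and -2.87 under depletion, and the 96 h groups overlapped (0.08, edgeR adjusted p = 0.295). MYBPC2, 1578 bp from SPIB, had 1 and 2 counts at 0 h, 19 and 26 in the control and 27 and 17 under depletion, and POLD1, 920 bp from SPIB on its other side, fell by 0.82 on the log2 scale in the control (edgeR adjusted p = 2.47e-16).

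Between the 96 h groups, 2 of the 20 flanking genes were called, 1 higher and 1 lower, where 5.41% and 7.03% of all tested genes were called. The median was -0.04 over the 20 and -0.03 over all tested genes. GSDMB, next to IKZF3, was at 5.42 ± 0.184 CPM in the control and 10.4 ± 1.59 CPM under depletion (log2 fold change 0.94, SE 0.19, edgeR adjusted p = 4.84e-05). FANCL, the nearest tested gene on the lower side of BCL11A at a distance of 2209110 bp, was at 18.4 ± 0.523 CPM in the control and 11.5 ± 0.303 CPM under depletion (log2 fold change -0.67, SE 0.13, edgeR adjusted p = 1.99e-05). POU2AF1, the factor called under depletion, was flanked by COLCA1 and SIK2. SIK2 was not called between the 96 h groups (0.19, edgeR adjusted p = 0.0652), and COLCA1, with 1 and 2 counts in the control and 5 and 1 under depletion, was too weakly counted to show a change.

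Finally, the genes most like each factor over the 6 libraries were listed, by the root mean square difference of centred log2 CPM among 9855 candidates with a mean of at least 10 CPM. HPS4, a gene of lysosome-related organelle biogenesis, was the closest to both PAX5 (0.0554) and EBF1 (0.0526), and PAX5 itself was the closest to LEF1 (0.0649). The surrogate light chain gene VPREB1 was among the 2 genes closest to POU2AF1 (0.138). VPREB1 was at 143 ± 11.5 CPM at 0 h, 12.1 ± 1.25 CPM in the control and 6.51 ± 0.350 CPM under depletion. The closest gene was PAICS for TCF3 (0.0536), MIA3 for IKZF1 (0.0199), TRAF3IP1 for FOXO1 (0.0451), ELOVL6 for BCL11A (0.0807) and MAP3K2 for SPIB (0.0657).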

How the data were processed

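RNA-seq counts were measured in 6 libraries of 3 groups. Per the deposited table and the study's methods, the authors made raw counts per gene, aligning reads to hg38 with STAR 2.6.1d and counting with featureCounts 2.0.6 over what the methods call protein-coding exons, although the table also holds non-coding genes such as LEF1-AS1. The annotation release and strand setting are not given in the sources used here. The kit was stranded, for total RNA depleted of ribosomal RNA. Reads were amplified and carry no molecular identifiers, and the floor of 3 counts covers counting error only. DESeq2 was the authors' test.

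The counts were tested in R 4.3.3 with edgeR 4.0.16: filterByExpr, TMM scaling, and a quasi-likelihood F test over all 6 libraries with group as the only term (prior degrees of freedom 51.7, common biological coefficient of variation 3.96%). P-values were adjusted by the Benjamini-Hochberg method over 14758 genes, which hold 99.9% of counts. The fit was tested on simulated data. With 2 against 2 libraries the smallest two-sided permutation p is 0.333, so no permutation test was run. The SE was not an output of the fit. It was derived as the absolute log2 fold change divided by the square root of the F statistic. Confidence intervals (95%) used this SE and the t distribution. Positions and MANE Select lengths came from GENCODE release 44 on hg38, matched by symbol or a RefSeq synonym for 13542 tested genes (91.8%). Tables and plots used Python 3.11.15, pandas 2.3.3, numpy 2.4.6, scipy 1.17.1 and matplotlib 3.10.9.

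The rule for named genes was the 10 factors, CTCF, the genes of the label check, up to 4 genes per list with the largest called changes, the nearest and overlapping genes of each factor, and the 2 genes most like each. Other genes, such as CIITA and EBF4, were chosen after their values were seen. The factors and lists were chosen with earlier results of these data known. Alternatives were DESeq2 1.42.0, RLE, upper quartile and total count scaling, no filter, at least 10 counts in every library, only the 4 libraries compared, a replicate block, 2 other thresholds, and leaving out each library.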

Additional observations from a re-analysis of the deposited data

Results flagged for a closer look

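POU2AF1 differed between the 2 conditions at 96 h: its change against 0 h was larger under CTCF depletion than in the control, by -0.67 on the log2 scale (edgeR adjusted p = 5.33e-04), with both depleted libraries below both control libraries. Over the alternatives the value ranged from -0.77 to -0.50 and the adjusted p from 4.47e-04 to 0.068. It rests on 120 and 95 counts in the control and 68 and 64 counts in the depleted libraries.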

How the results depend on the processing

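Against 0 h, 7 factors lower and 1 higher were called under each alternative in both conditions, leaving out each library included (8 and 8), except that IKZF1 was also called lower with adjusted p under 0.05 and no fold limit. Between the 96 h groups 1 factor was called, 4 with adjusted p under 0.05 and no fold limit, 0 at an absolute log2 fold change above 1, and 0 to 1 when 1 library was left out, each of them lower; leaving out a library gives a group with 1 library, assumed to vary like the others. Genes called over all tested genes at the looser threshold were 5500 lower and 5612 higher in the control against 0 h, 5658 lower and 5784 higher under depletion against 0 h, and 3330 lower and 2375 higher between the 96 h groups; above an absolute log2 fold change of 1 they were 2075 lower and 2744 higher in the control, 2513 lower and 2967 higher under depletion, and 436 lower and 409 higher between the 96 h groups, by construction of the thresholds. Leaving out a library gave 3148 to 3627 lower and 3426 to 3787 higher in the control, 3474 to 3748 and 3833 to 4156 under depletion, and 766 to 963 and 675 to 873 between the 96 h groups. Small differences between the 96 h groups changed sign: EBF1, -0.02, ranged from -0.03 to 0.05 when 1 library was left out and came to 0.01 (upper quartile scaling, no filter, the 4 libraries compared, without either 0 h library), 0.02 (total count scaling, at least 10 counts), 0.05 without control replicate 2 and 0.03 without CTCF-depleted replicate 1, and IKZF1, -0.04, ranged from -0.03 to 0.02 when 1 library was left out and came to 0.00 (total count scaling, at least 10 counts) and 0.02 without control replicate 2 or CTCF-depleted replicate 1; the cause was not tested. Over the alternatives the difference between the 96 h groups ranged from -0.18 to -0.08 for LEF1, -0.11 to -0.02 for PAX5, -0.29 to -0.20 for TCF3, -0.45 to -0.31 for SPIB, 0.05 to 0.19 for FOXO1 and 0.04 to 0.17 for BCL11A. Upper quartile and total count scaling both moved the median of all genes in the control against 0 h from 0.02 to -0.10, where SPIB stayed above 0 and the 7 lowered factors below it. Replicate numbers did not pair libraries (correlations of replicate differences -0.0194, 0.0109 and -0.0294); with the replicate number as a block, 8, 8 and 1 factors were called, and over all genes 1033 lower and 785 higher between the 96 h groups. Requiring at least 10 counts in every library also left fewer genes of other lists called in the control against 0 h. The counts were 13 lower and 1 higher for the target genes and 2 lower and 5 higher for the relatives. For the B cell markers 4 were lower, and for the T, natural killer, erythroid and platelet markers 1 was higher. Depth limits IKZF3, which was not tested.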
